A study of Danio rerio with 7 samples.

Results

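Notch signaling passes between touching cells. Delta and Jagged ligands on a cell bind Notch receptors on its neighbour, the receptor is cleaved, and its freed intracellular part joins the DNA-binding protein RBPJ to switch on *her* and *hey* genes, which encode basic helix-loop-helix repressors. In the embryo the pathway keeps neural progenitors from differentiating, times somite formation, sets arterial fate and patterns the valves, trabeculae and outflow tract of the heart. The genes of this pathway were taken from the deposited tables by symbol: those starting with *notch*, *jag*, *dll*, *hey* or *her* followed by a digit, with *dla*, *dlb*, *dlc* and *lfng*. The choice found 34 of 33737 gene IDs and used no measured value, but it was made with earlier results of these data known. *mib1* and *notch1a* were not analysed here, and the *RBPJ* genes are given with the wider pathway. The choice also took in *jagn1a* and *jagn1b*, which share only the first letters of their names with the Jagged ligands and encode jagunal, a protein of the endoplasmic reticulum.

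RNA was sequenced from pooled hearts of zebrafish at 96 h post-fertilization (hpf), in 3 control and 4 *cora* libraries with no treatment. The tissue label of each library is heart, while the titles speak only of embryos. The *cora* embryos were homozygous for *cora stl325*, a nonsense mutation in the gene *taf5*, whose product is a scaffold of the general transcription factor TFIID. The controls were unaffected clutchmates, which can include heterozygous carriers although the labels call them wild type, and both groups carried the *Tg(cmlc2::gfp)* transgene, which marks cardiomyocytes with green fluorescent protein. A library is a pool of animals, and nothing says that the pools came from separate clutches, so the p-values measure only the spread between these pools.

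The libraries held 21474488 to 32037220 counts on genes, and values below are normalized counts relative to library size (normalized CPM, scaled by TMM to make libraries comparable) unless RPKM, which is also per kilobase of exon, is named. *taf5* was at 8.83, 5.10 and 5.27 in the control libraries and at 1.97, 3.10, 3.70 and 4.56 in the *cora* libraries, a log2 fold change of −0.94 ± 0.376 (SE; edgeR adjusted p = 0.232). The very end of its last exon overlaps a gene on the opposite strand. Cardiomyocyte markers took only 0.0223% to 0.349% of the counts, with the lowest share in control replicate 1, and an epidermis list took a larger share, 1.04% to 3.29%, in each of the 7 libraries. The tissue label is therefore only partly borne out: cardiac genes such as *MYL7*, the cardiac myosin light chain, were present (means 523.8 and 235.5, groups overlapping), beside RNA of other tissues. Control replicate 1 stood apart from the others, with 33.7% of its counts on mitochondrial genes against 16.8% to 21.8% elsewhere. Its rank correlation with the other controls was 0.916 to 0.917, while the other controls had 0.976 with each other. For the genes chosen by symbol, values that change sign or call without control replicate 1 are given with and without it. Single genes of the wider pathway and marker lists are given with all libraries only, and their dependence on control replicate 1 is not shown.

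Of the 34 genes, 31 had enough counts to be tested. Among those past the test, the Delta ligand *dla* and the repressor genes *her8a* and *hey2* fell in *cora* libraries, while the segmentation clock gene *her7* rose from near 0. In the quasi-likelihood test of edgeR (Benjamini-Hochberg adjustment, 21632 genes tested), 3 of the 31 (9.68%) were lower and 1 (3.23%) was higher at an adjusted p under 0.05, where 0.86% of all genes were lower and 1.11% higher. In 11 of the 31 (35.5%), each *cora* library was below each control library, against 8.73% of all genes, and in 1 (3.23%) each was above, against 9.01%. At an unadjusted p under 0.05, 11 (35.5%) were lower and 1 was higher, against 8.61% and 9.13% of all genes. The log2 fold change was below 0 in 24 of the 31 and above 0 in 7, and its median was −0.34, where 52.2% of all genes lay below 0 and their median was −0.03. Without control replicate 1, only 17 of the 31 lay below 0 and the median was −0.19. Without the 2 *jagn* genes the median was also −0.34, with 22 of 29 below 0. *her7* passed the filter on low counts through its *cora* libraries and *heyl* through its control libraries, so these counts and medians describe only the genes that passed. They also describe a list chosen with earlier results of these data known. In a bulk sample, fewer cells of a type and less RNA per cell cannot be told apart.

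**Figure D1:**
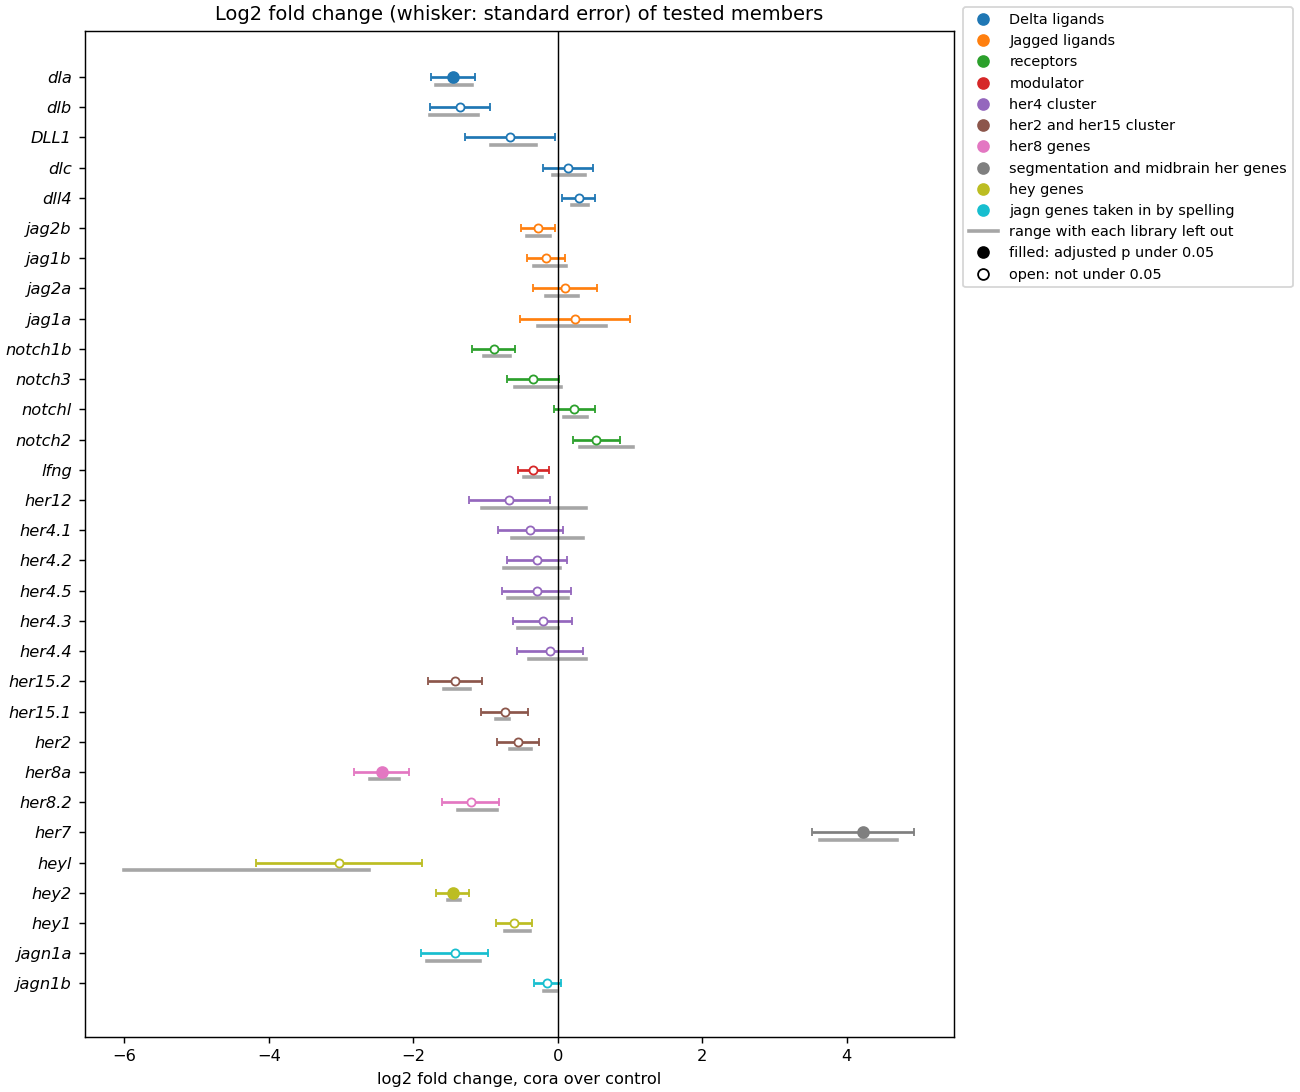
Log2 fold change of *cora* over control for the 31 tested genes, ordered by role, with the standard error as whiskers and the range over fits that leave out each library in turn as grey lines. The 4 filled points are the genes with an adjusted p under 0.05, and *her7* (4.23) and *heyl* (−3.03) lie farthest from 0.

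**Figure D2:**
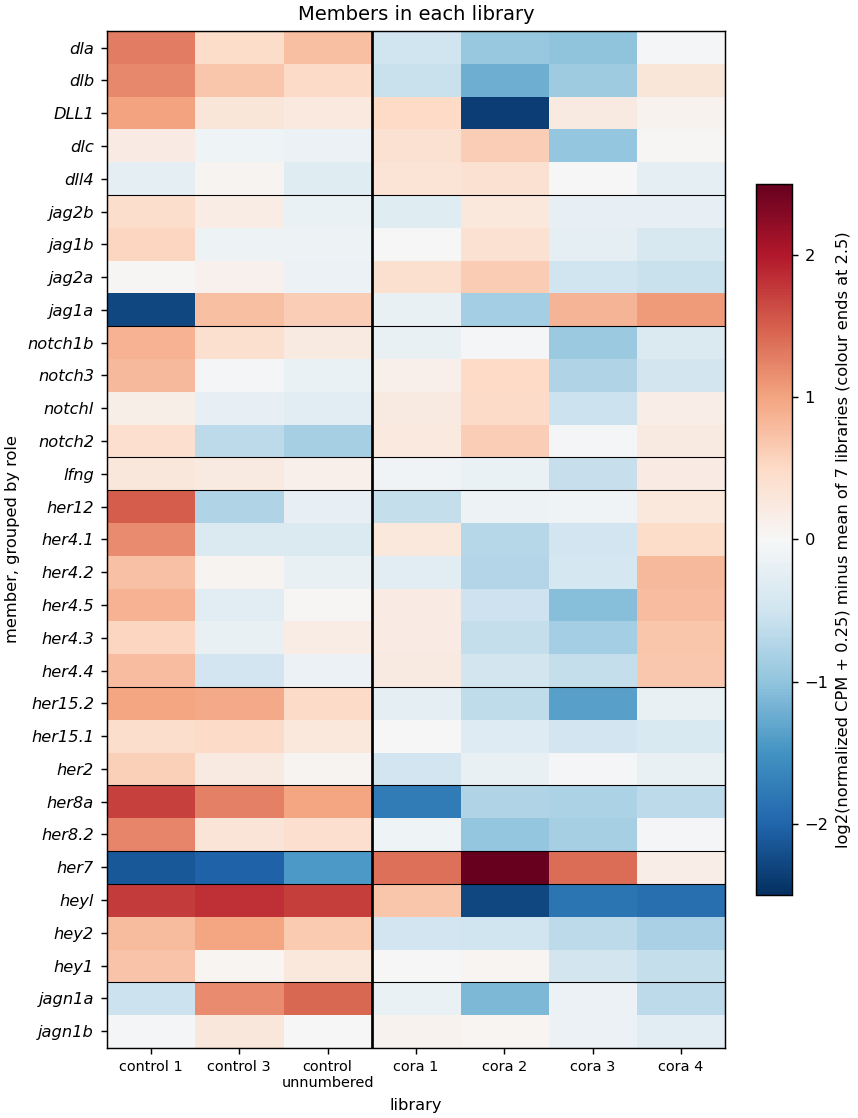
Level of each tested gene in each of the 7 libraries, as log2(normalized CPM + 0.25) minus the gene's mean over the libraries, with the colour scale ending at 2.5 on either side. The *her8*, *hey* and *dla* rows are red in the control and mostly blue in the *cora* libraries, *her7* shows the opposite, and the *her4* rows are highest in control replicate 1 or *cora* replicate 4.

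Among the Delta ligands, *dla* fell and *dlb* lay lower without passing the test, while the other 3 overlapped between the groups. *dla*, which in zebrafish is expressed by cells entering neurogenesis, is the *DLL1* gene of the symbol table on chromosome 1 (54580211 to 54592934, Zv9 build, + strand), named from 13 neighbouring genes it shares with *dla* in the GRCz12tu assembly. In the order control replicate 1, control replicate 3 and the control library without a number, then *cora* replicates 1, 2, 3 and 4, which is used throughout, *dla* was at 65.2, 36.8 and 45.4 and at 18.8, 13.7, 13.2 and 26.1 normalized CPM. The groups did not overlap, with the highest *cora* library, replicate 4, below the lowest control. Control libraries averaged 49.1 ± 14.6 (SD, n = 3) and *cora* libraries 17.9 ± 6.004 (SD, n = 4), a 2.74-fold difference with a log2 fold change of −1.46 ± 0.302 (SE; edgeR adjusted p = 0.0485; exact two-sided permutation p = 0.0286, the smallest that 35 splits can give). The call was close to the threshold: *dla* passed in only 1 of 7 fits that left out a library, the fit without *cora* replicate 4 (adjusted p = 0.0272), and the adjusted p reached 0.171 in the others. Without control replicate 1 the log2 fold change of *dla* was −1.19 and the call was lost. *dla* lies 4.642 Mb from *taf5* on the same chromosome, so an effect of other variants inherited with the *cora* allele cannot be told apart from an effect of the mutation.

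*dlb*, a second neurogenic Delta gene, was at 12.4, 8.71 and 7.49 in control and at 3.52, 2.13, 2.73 and 6.57 in *cora* libraries. Its groups were also separate, again with *cora* replicate 4 nearest to the controls. The log2 fold change was −1.35 ± 0.413 (SE; edgeR adjusted p = 0.134), and it passed only without *cora* replicate 4 (adjusted p = 0.0415). *dll4*, the Delta ligand of arterial endothelium, had the highest log2 fold change of the ligands of this type, at 20.8, 25.6 and 19.7 against 30.9, 31.9, 24.5 and 20.5. *Cora* replicates 3 and 4 lay among the controls, and the change was 0.29 ± 0.227 (SE; edgeR adjusted p = 0.557). *dlc*, a ligand of the somite clock, and the *DLL1* gene on chromosome 13 had log2 fold changes of 0.14 and −0.66 with overlapping groups.

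None of the 4 Jagged genes passed the test or separated the groups. *jag2b* had the lowest log2 fold change, −0.27 ± 0.237 (SE), from 28.4, 23.9 and 18.5 in control and 16.9, 25.2, 18.01 and 17.99 in *cora* libraries. Here 3 *cora* libraries lay below all controls and *cora* replicate 2 lay among them. *jag1b*, which with its paralogs patterns the pharyngeal arches, had the highest mean level per length of these genes (4.33 ± 0.993 RPKM, SD, n = 7). Its libraries were at 41.4, 26.0 and 26.2 against 29.0, 37.2, 23.97 and 21.5 normalized CPM, with control replicate 1 the highest and the other controls in the *cora* range. The log2 fold change was −0.16 ± 0.266 (SE), and 0.11 without control replicate 1. *jag1a*, which lies 1.676 Mb from *taf5* on chromosome 1, was at 0.431, 5.25 and 4.78 against 2.64, 1.57, 5.68 and 6.61. Control replicate 1 was the lowest of all, and the log2 fold change of 0.23 ± 0.761 (SE) became −0.27 when that library was left out.

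The receptors did not move together. *notch1b*, a receptor of arterial endothelium and endocardium, was at 16.3, 11.6 and 10.3 in control and at 7.70, 8.598, 4.48 and 6.74 in *cora* libraries. All *cora* libraries lay below all controls, and the log2 fold change was −0.89 ± 0.297 (SE), which did not pass the test over all genes (edgeR adjusted p = 0.162; exact permutation p = 0.0286). *notch2*, whose human counterpart is, like JAG1, a cause of Alagille syndrome when mutated, was at 68.2, 32.3 and 28.8 against 61.0, 78.2, 50.1 and 60.0. The *cora* libraries were above control replicate 3 and the control without a number, but control replicate 1 lay within their range. With all libraries its log2 fold change was 0.53 ± 0.323 (SE; edgeR adjusted p = 0.44), and without control replicate 1 it was 1.04 (adjusted p = 0.0434). *notch3*, a receptor of mural cells and neural progenitors, and *notchl* had log2 fold changes of −0.34 and 0.23, and their groups overlapped. That of *notch3* was 0.0445 without control replicate 1. The exons of *notchl* share 155 bases with a gene on the opposite strand.

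*lfng* encodes a glycosyltransferase that adds sugar to Notch and so sets which ligands it answers to. It was at 61.0, 58.1 and 54.4 in control and at 46.8, 44.5, 33.5 and 58.0 in *cora* libraries. Only *cora* replicate 4 reached the control range, and the log2 fold change of −0.34 ± 0.218 (SE) did not pass (edgeR adjusted p = 0.468). At 16.4 ± 2.78 RPKM (SD, n = 7) it had, after *jagn1b* and *her4.1*, the highest mean level per length of all 34 genes.

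The *her4* genes and *her12* are Notch targets, and *her4* is the standard readout of Notch activity in zebrafish neural progenitors. They lie in tandem on chromosome 23, where *her4.1* to *her4.5* span 18.5 kb, and copies this similar may share reads, so single copies are uncertain. All 6 had log2 fold changes below 0, but none passed the test or separated the groups. *her4.1*, the highest per length (18.2 ± 7.71 RPKM, SD, n = 7), was at 37.3, 12.7 and 12.6 normalized CPM in control and at 19.8, 9.87, 11.7 and 22.7 in *cora* libraries. Control replicate 1 was the highest library by far, and the other controls lay within the *cora* range. The log2 fold change was −0.38 ± 0.452 (SE), and 0.35 without control replicate 1.

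*her12* had the lowest log2 fold change of the cluster, −0.67 ± 0.562 (SE). Its libraries were at 9.34, 1.76 and 2.68 against 1.97, 2.84, 2.91 and 3.78, so that apart from control replicate 1 the groups were alike in range, and the log2 fold change was 0.38 without that library. *her4.4* had the highest, −0.11, from 7.79, 3.13 and 3.99 against 5.23, 3.14, 2.86 and 7.19. It was 0.39 without control replicate 1, and *her4.2*, *her4.3* and *her4.5* (−0.29, −0.21 and −0.29) were at 0.0347, 0.00393 and 0.15. Summed over *her4.1* to *her4.5*, the level was 85.1, 38.3 and 40.8 in control and 49.9, 28.4, 28.8 and 71.3 in *cora* libraries. How reads are split among these copies does not affect the sum, but any reads dropped for matching several copies are missing from it. The mean log2 difference of the sum was −0.30 (exact two-sided permutation p = 0.571) and 0.06 without control replicate 1. The lower values of the *her4* genes thus rested on that library.

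The second cluster of this kind is *her2*, *her15.1* and *her15.2* on chromosome 11. All 3 lay lower in each *cora* library than in each control, which held for 8.73% of all genes, without an adjusted p under 0.05. These genes belong with *her4* to the family of mammalian *Hes5*, a Notch target of neural progenitors. *her15.2* was at 8.22, 7.98 and 5.73 in control and at 3.39, 2.51, 1.43 and 3.53 in *cora* libraries, and *her15.1* at 3.92, 4.01 and 3.40 and at 2.81, 2.21, 1.94 and 2.095. Neither gene overlapped between the groups. Their log2 fold changes were −1.43 ± 0.372 (SE; edgeR adjusted p = 0.088) and −0.74 ± 0.326 (SE; adjusted p = 0.28), and the 2 copies lie 13.7 kb end to end and may share reads. Their sum was 11.1 ± 1.70 (SD, n = 3) in control and 4.98 ± 1.23 (SD, n = 4) in *cora* libraries, a mean log2 difference of −1.18 (exact permutation p = 0.0286) and of −1.11 without control replicate 1. *her2*, the highest of the 3 per length (6.44 ± 1.28 RPKM, SD, n = 7), was at 7.58, 5.77 and 5.14 against 3.43, 4.26, 4.80 and 4.31 normalized CPM. The groups were separate by a small gap, and the log2 fold change was −0.55 ± 0.289 (SE; adjusted p = 0.363).

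Both *her8* genes lay lower, and *her8a*, which is expressed in the developing zebrafish nervous system, had the largest fall among the genes that passed. *her8a* (chromosome 7, 27555809 to 27562348, − strand) was at 11.7, 8.44 and 7.003 in control libraries. In *cora* libraries it was at 0.837, 1.91, 1.85 and 2.05, all far below the lowest control. On average *her8a* was at 9.05 ± 2.41 (SD, n = 3) in control against 1.66 ± 0.556 (SD, n = 4), a 5.43-fold difference with a log2 fold change of −2.44 ± 0.384 (SE; edgeR adjusted p = 0.0245; exact permutation p = 0.0286). Leaving out a library kept the log2 fold change between −2.60 and −2.20. The adjusted p ranged from 0.0259 to 0.0892 and passed in 3 of the 7 such fits, being lost without control replicate 3, the control without a number, *cora* replicate 1 or *cora* replicate 3. *her8.2* was at 8.998, 4.73 and 5.07 against 3.43, 1.79, 1.99 and 3.61. It too did not overlap, with a log2 fold change of −1.21 ± 0.397 (SE; edgeR adjusted p = 0.156).

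*her7*, a repressor of the somite segmentation clock in the presomitic mesoderm, was the only gene of the 31 that rose. It lies on chromosome 5 (71711885 to 71713200, + strand) and was nearly silent in the control libraries, with 5, 8 and 15 counts or 0.215, 0.243 and 0.491 normalized CPM. The *cora* libraries held 119, 327, 109 and 49 counts, or 4.98, 12.2, 5.04 and 2.01 normalized CPM. The groups were well apart, although the *cora* libraries differed widely among themselves. The fitted difference was 18.8-fold, with a log2 fold change of 4.23 ± 0.708 (SE; edgeR adjusted p = 0.0287; exact permutation p = 0.0286). Its log2 fold change ranged from 3.64 to 4.69 with each library left out, and it passed in 3 of the 7 fits (adjusted p 0.0142 to 0.137), being lost without the same 4 libraries as *her8a*. The rise did not extend to *her1*, its partner in the clock and neighbour on the chromosome (71693373 to 71699778), which had at most 8 counts in any library. *her5* and *her11*, repressors of neurogenesis at the midbrain-hindbrain boundary, had at most 1 and 11 counts. Like *her1* they were too low to test. Within 100 kb of *her7*, none of the 6 genes tested had an adjusted p under 0.05.

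The *hey* genes act in arteries, endocardium and myocardium. All 3 were lower in each *cora* library than in each control, which held for 8.73% of all genes, and *hey2* fell. *hey2*, known as gridlock from the zebrafish mutant in which the aorta fails to form, also sets ventricular identity. It lies on chromosome 20 (39614606 to 39622047, − strand). *hey2* was at 14.7, 16.9 and 13.5 in control and at 6.03, 5.94, 5.27 and 4.72 in *cora* libraries, a tight grouping on both sides. The control mean was 15.06 ± 1.73 (SD, n = 3) and that of *cora* libraries 5.49 ± 0.615 (SD, n = 4), a 2.74-fold difference with a log2 fold change of −1.46 ± 0.229 (SE; edgeR adjusted p = 0.0245; exact permutation p = 0.0286). Leaving out a library kept the change between −1.53 and −1.35, and the adjusted p (0.0213 to 0.129) was lost without the same 4 libraries as for *her8a*.

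*heyl* was at 3.83, 4.07 and 3.80 normalized CPM in control libraries, from 89, 134 and 116 counts. The *cora* libraries held 41, 0, 2 and 2 counts, or 1.72, 0, 0.0924 and 0.0821 normalized CPM, where 3 counts correspond to 0.117 to 0.140 CPM before normalization. Replicate 1 thus kept a clear signal, and the other *cora* libraries were under 3 counts. With this spread the log2 fold change of −3.03 ± 1.15 (SE) did not pass the test (edgeR adjusted p = 0.208), whereas without *cora* replicate 1 it was −6.00 (adjusted p = 0.0401). *hey1*, the highest of the 3 per length (7.32 ± 1.94 RPKM, SD, n = 7), was at 38.8, 24.4 and 28.3 against 23.4, 24.2, 17.1 and 15.4. *Cora* replicate 2 lay just under the lowest control, and the log2 fold change was −0.61 ± 0.252 (SE; adjusted p = 0.251).

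**Figure D3:**
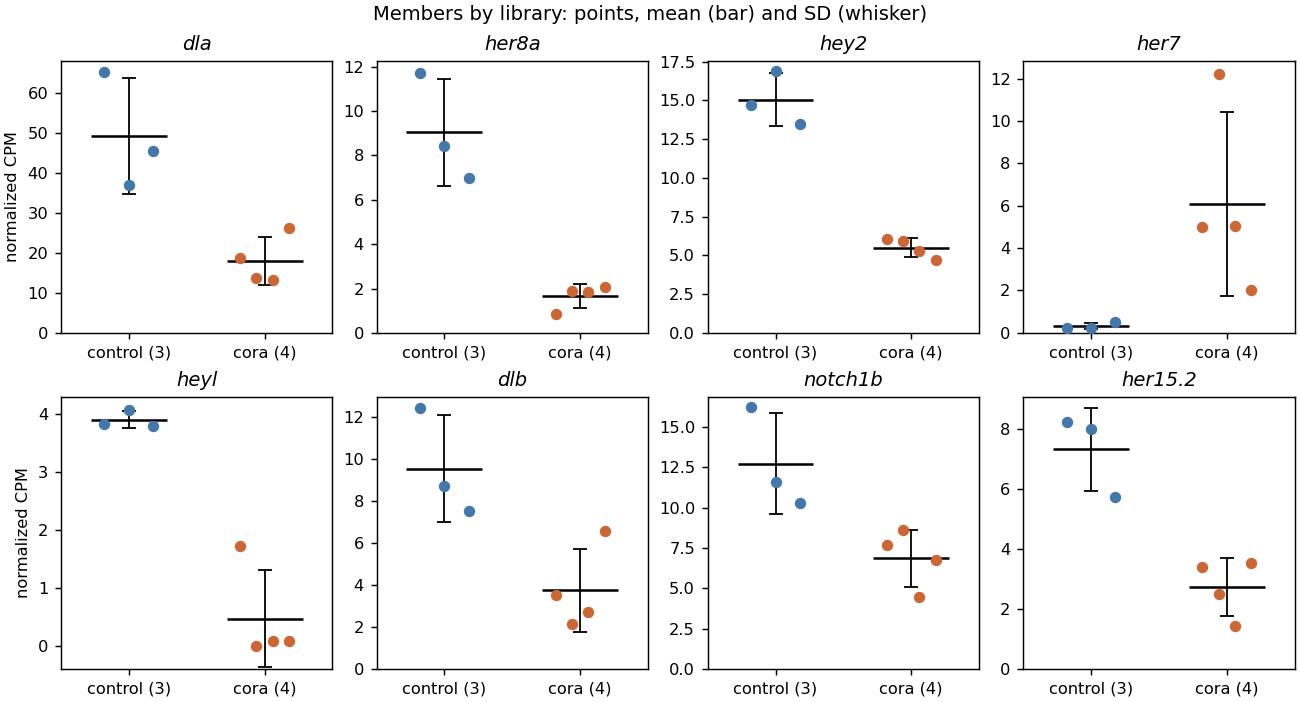
Normalized CPM of 8 genes in each library, with the mean as a bar and the SD as whiskers (3 control and 4 *cora* libraries). In *dla*, *her8a*, *hey2*, *heyl*, *dlb*, *notch1b* and *her15.2* each *cora* point lies below each control point, and in *her7* each lies above, between 2.01 and 12.2 against at most 0.491.

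The jagunal genes are given for completeness. *jagn1a* was at 4.39, 14.9 and 17.8 in control and at 5.74, 2.84, 5.82 and 3.98 in *cora* libraries, so that control replicate 1 lay among the *cora* libraries. The log2 fold change of −1.43 ± 0.467 (SE; edgeR adjusted p = 0.154) was −1.82 without that library (adjusted p = 0.0259). *jagn1b* had the highest level per length of all 34 genes (26.4 ± 4.53 RPKM, SD, n = 7), and was at 41.0, 51.3 and 42.3 against 45.0, 43.9, 38.3 and 35.2 normalized CPM, with overlapping groups.

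Per length, the genes chosen by symbol other than *jagn1b* ranged from *her4.1* (18.2 RPKM) and *lfng* (16.4) down to *jag1a* (0.584), with *her1*, *her5* and *her11* at 0.0821 RPKM or less. *her4.1* and *lfng* did not differ beyond their spread, and neither did *dll4*, *dla* and *hey1* (7.92, 7.64 and 7.32). By group means, *dla* (11.8 RPKM) lay above *dll4* (6.79) among Delta ligands in control libraries, and *dll4* (8.76) lay above *dla* (4.54) in *cora* libraries. *hey1* was at 8.80 and *hey2* at 8.10 RPKM in control libraries, and at 6.22 and 3.11 in *cora* libraries. *notch2* had the highest level per length of the receptors, 4.00 RPKM in control and 6.35 in *cora* libraries, and *notch1b* the lowest, 1.54 and 0.895.

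The wider pathway was described by 7 lists, chosen with earlier results of these data known, which matched 91 further genes, of which 90 were tested. None passed at an adjusted p under 0.05 in either direction by edgeR. At an unadjusted p under 0.05, 12 (13.3%) were lower and 7 (7.78%) higher, against 8.61% and 9.13% of all genes. Of the 12 lower genes, 5 were on the proneural list. DESeq2 called 6 lower and 3 higher, and 3.72% and 4.55% of all genes. The median log2 fold change was −0.18, with 57 (63.3%) below 0. In the cleavage list, 7 of 10 genes lay above 0 and the median was 0.26. Its metalloprotease *adam10a*, which makes the first cut of the ligand-bound receptor, had a log2 fold change of 0.58 ± 0.203 (SE; edgeR adjusted p = 0.176). The highest and lowest of the list were a *FURIN* gene (ENSDARG00000062909) at 0.71 and *adam10b* at −1.16. The other *FURIN* gene (ENSDARG00000070971) went the opposite way, at −0.45 (edgeR adjusted p = 0.272), with each *cora* library below each control. Of the 5 glycosylation genes, *POGLUT1* was at −0.87 and *EOGT* at 1.39, both sugar transferases acting on Notch repeats. The 18 trafficking and turnover genes ran from the noncanonical ligand *DNER* at −1.06 to the Notch inhibitor *NUMB* at 0.61. Among 22 nuclear cofactors the median was −0.07, the range was from *RBPJL* at −1.50 to the coactivator *MAML1* at 0.60, and the 2 *RBPJ* genes, which carry Notch output to DNA, were at −0.15 and 0.30.

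No gene of the other *hes*, proneural or arterial lists passed the test. *HES6* (ENSDARG00000019335), a relative of the Notch targets that promotes neurogenesis, averaged 19.8 and 9.46 normalized CPM, with a log2 fold change of −1.07 ± 0.231 (SE; edgeR adjusted p = 0.0537). *HES3*, which is *her3* by its neighbours, was the lowest of its list at −2.63, and *BHLHE40* the highest at 0.62. *HES1* and *HES4*, which are *her6* and *her9* by their neighbours, were at −0.45 and 0.19, both with overlapping groups. Per length, *HES4* averaged 54.3 RPKM in control and 66.4 in *cora* libraries, above *her4.1* in both groups. All 12 genes tested on the proneural list, some of which encode factors that Her repressors hold down, lay below 0. Their median was −0.78, and an unadjusted p under 0.05 was reached by 5 (41.7%, against 8.61% of all genes). Each *cora* library was below each control in only 2 of the 12 (16.7%, against 8.73% of all genes). At the low end stood *atoh1c*, a determinant of cerebellar neurons, at −2.78 ± 0.683 (SE; adjusted p = 0.077), and an *INSM1* gene (ENSDARG00000091756) was at −1.31 (adjusted p = 0.0753). The other *INSM1* gene (ENSDARG00000053301) was at −0.26 with overlapping groups. In the list of 15 arterial and endocardial genes, 11 lay below 0, with a median of −0.23, and 2 (13.3%) were lower at that unadjusted threshold. *klf2a*, a flow-responsive endothelial factor, averaged 59.5 ± 7.56 (SD, n = 3) and 31.4 ± 6.16 (SD, n = 4), with a log2 fold change of −0.92 ± 0.217 (SE; adjusted p = 0.0664) and no overlap. Its paralog *klf2b* averaged 95.2 and 99.5, with a log2 fold change of 0.06 (edgeR adjusted p = 0.952) and overlapping groups. The 2 genes for *EFNB2*, an arterial marker, went opposite ways, the scarcer (ENSDARG00000074050) at −0.95 (adjusted p = 0.16) and the more abundant (ENSDARG00000020164) at 0.24 with overlapping groups. A *GJA5* gene (ENSDARG00000069450) was the lowest at −1.72, and an *NRG2* gene (ENSDARG00000077818) was the highest at 0.62, while the other *NRG2* gene was at −0.41. All 3 overlapped between the groups.

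Of the 17 marker lists, most overlapped between the groups, while the neural progenitor, exocrine pancreas, intestine and lens shares did not. The share of the 15 neural progenitor genes was 0.114%, 0.152% and 0.148% in control and 0.0762%, 0.0512%, 0.0678% and 0.0596% in *cora* libraries. The largest part came from 1 *FABP7* gene (ENSDARG00000007697). It held 815, 894 and 785 of 1365, 1473 and 1398 normalized CPM in control libraries. In *cora* libraries it held 342, 188, 353 and 279 of 730, 470, 672 and 628. Singly, only 3 of the 15 genes were lower in each *cora* library than in each control, and the rest overlapped. The summed share was lower in all *cora* libraries, alongside the neural genes *dla*, *dlb*, *her8a* and *her15.2* and the proneural list, which shares *neurog1* and *ascl1a* with this list. The *her4* genes, also Notch targets of neural progenitors, overlapped between the groups. The log2 difference of the sum over *her4.1* to *her4.5* was −0.30, and 0.06 without control replicate 1. Of the 15 neural progenitor genes 13 lay below 0, and *FABP7* (ENSDARG00000007697, log2 fold change −1.52, edgeR adjusted p = 0.0317) and *ZIC1* (−1.29, adjusted p = 0.0401) fell. These were 2 of 15 (13.3%), where 0.86% of all genes were lower. The summed level of the 10 neuron genes, 1496 to 2053 normalized CPM in control and 1320 to 2161 in *cora* libraries, overlapped. Exocrine pancreas genes, 7 of 7 of which fell where 0.86% of all genes did, took 0.41% to 1.86% in control and 0.0567% to 0.126% in *cora* libraries. *PTF1A*, which is on the proneural list, and *RBPJL* are both known from pancreatic acinar cells. *PTF1A* was at −2.05 (edgeR adjusted p = 0.134) and *RBPJL* at −1.50 ± 1.30 (SE; adjusted p = 0.605), both with overlapping groups. *RBPJL* had at most 44 counts in any library. The 4 intestine genes summed together also took less in each *cora* library, 0.029% to 0.108% against 0.114% to 0.171%. Singly, each of the 4 overlapped between the groups and none passed the test. Of these, 3 lay below 0, while *FABP6* went the other way with a log2 fold change of 2.96. Lens genes took more, 0.122% to 1.80% against 0.0285% to 0.0521%. Among the *cora* libraries, *her7* was highest in replicate 2, where the lens share was lowest, and lowest in replicate 4, where that share was highest. Skeletal muscle genes, 8 of 8 of which lay above 0, took 0.123% to 0.327% in control and 0.186% to 0.485% in *cora* libraries. Cartilage genes, with 7 of 9 above 0, took 0.00651% to 0.0141% and 0.0114% to 0.0222%, and both lists overlapped between the groups. Among the *cora* libraries, the skeletal muscle share was, like that of lens, lowest in replicate 2 and highest in replicate 4. The cartilage share was, like *her7*, highest in replicate 2 and lowest in replicate 4. A link of *her7* to any of these lists was not tested. The 9 endothelial and endocardial genes took 0.0160% to 0.0321% in control and 0.0224% to 0.0366% in *cora* libraries, with overlapping groups. Of these 9, 6 lay below 0 and none passed the test, with a median of −0.16 and a range from *tek* at −1.01 to *sox18* at 0.65. Cardiomyocyte genes took 0.0223% to 0.349% and 0.0317% to 0.186%, also overlapping. Control replicate 1 had the lowest share of the 7 libraries and control replicate 3 the highest. Of the 11 tested, 10 lay below 0, with a median of −0.82, but 0 had an unadjusted p under 0.05 by edgeR. No gene of these lists was at 0 in all libraries. The part of cell composition in these results was not tested.

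**Figure D4:**
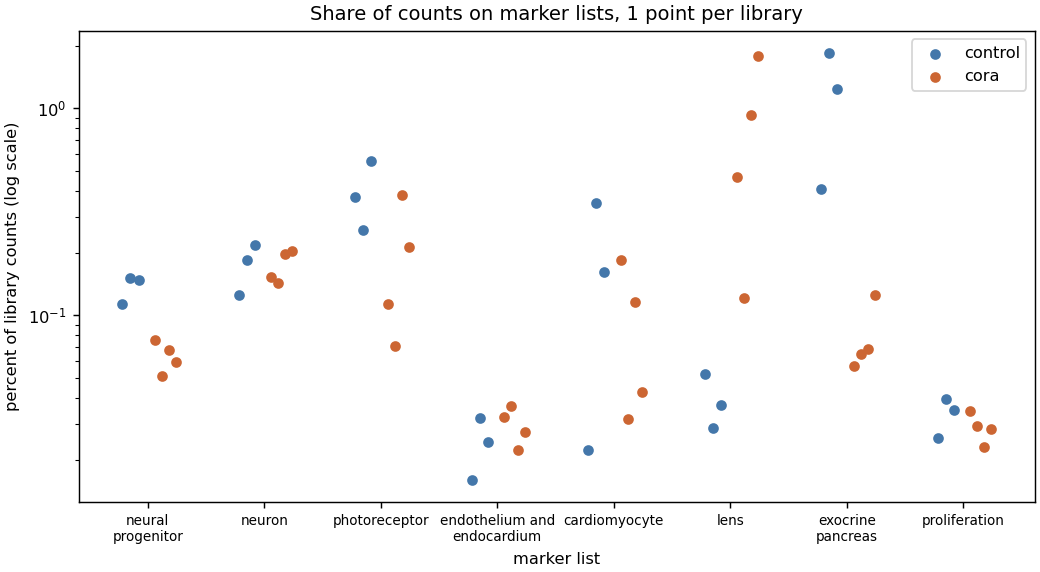
Percent of each library's counts on 8 marker lists, on a log axis, with 1 point per library (3 control, 4 *cora*). Neural progenitor and exocrine pancreas shares are lower in each *cora* library and lens shares higher, while the neuron, photoreceptor, endothelium and endocardium, cardiomyocyte and proliferation lists overlap between the groups.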

How the data were processed

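The authors deposited 1 table per library with, for 33737 Ensembl genes on Zv9, raw counts of reads per gene, CPM (count scaled to the library's reads on genes) and RPKM (CPM per kilobase of exon). The submitters' processing notes name STAR 2.0.4b, featureCounts 1.4.5 (Subread), edgeR and limma, without roles. The Ensembl release, the strand setting and the handling of multi-mapping reads are not given in the sources used here. If such reads were dropped or split, near-identical copies lose or share counts.

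Testing used edgeR 4.0.16 in R 4.3.3 (TMM, filterByExpr with genotype as the group, glmQLFit and glmQLFTest, no covariate), with Benjamini-Hochberg adjustment over 21632 genes and a threshold of 0.05. Normalized CPM divides counts by TMM-scaled library sizes. Standard errors came from the F statistic, and log2 fold changes used a prior count of 0.125. Single values were also compared by exact two-sided permutation over 35 splits (smallest p 0.0286). The deposited CPM was not tested, and RPKM, without TMM scaling, was used only for levels between genes. At these depths 3 counts correspond to 0.0936 to 0.140 CPM, which covers counting error only.

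Symbols were found for 21939 IDs (65.0%). Zebrafish names of genes listed under human symbols came from shared neighbours in RefSeq's GRCz12tu table. List entries were matched by symbol, or without the trailing paralog letter, and 24 of 112 pathway and 29 of 166 marker entries were unmatched. *RBPJ*, *HES1*, *HES3* and *HES4* were added after the tables were seen, because of their spelling. The members and lists were chosen with earlier results of these data known. Genes given in full were those past the threshold, those whose groups did not overlap, and, in each role, the lowest and highest log2 fold change and the highest mean RPKM. The genes of the neural progenitor and exocrine lists, *MYL7*, *adam10a*, *EFNB2*, *PTF1A*, *HES6*, *klf2a*, *INSM1* and the *RBPJ* genes were named after their values were seen. So were *FABP6*, *HES1*, *HES4*, *klf2b* and the *FURIN* gene ENSDARG00000070971.

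Alternatives were other scalings, DESeq2 1.42.0, limma 3.58.1 voom with and without quality weights, other filters, each library left out, and a replicate block. The procedure was tested on simulated counts.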

Additional observations from a re-analysis of the deposited data

Results flagged for a closer look

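Of the 31 tested genes, 3 had a *cora* library far from the other *cora* libraries by Dixon's test, which chance gives in about 1 of 20 groups. *jag2b* was at 25.2 normalized CPM in *cora* replicate 2, with a gap to the nearest library of 0.863 of the group's range. *her8a* was at 0.837 in *cora* replicate 1, below the others, with a gap of 0.831 of the range. *heyl* was at 1.72 in *cora* replicate 1, above the others, with a gap of 0.946 of the range. The control group of 3 was not examined in this way.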

How the results depend on the processing

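Which genes were called depended on the test more than on the scaling: no sign or call of a member changed with unscaled library sizes, upper quartile scaling or the size factors of DESeq2. DESeq2 called 5 members lower (adding *dlb* and *her15.2*), and voom with quality weights 7 lower and 2 higher (adding *heyl* and *jagn1a*, and *notch2*). Voom called 0 higher, as did requiring at least 10 counts in every library, which left *her7* untested; both kept *dla*, *her8a* and *hey2*. Over all genes, lower and higher calls were 186 and 240, 805 and 984 by DESeq2, and 1469 and 1644 by voom with quality weights. In the wider pathway, DESeq2 called 6 lower and 3 higher, quality weights 8 and 6, and the 10-count filter 1 lower. With each library left out in turn, 0 to 4 members were lower and 0 to 2 higher, 25 to 548 genes were lower and 9 to 659 higher in all, 0 to 3 wider pathway genes were lower and 0 to 1 higher, and the members' median ran from −0.56 to −0.19.

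Libraries numbered 1 and 3 shared a number between groups, but the labels do not say that it marks a clutch, and same-numbered deviations correlated at 0.0576 and 0.0316. A fit of these 4 libraries with a replicate block called 0 genes lower and 0 higher in all, and 0 and 0 members, while at an unadjusted p under 0.05 it had 1101 and 1000 genes, and 7 and 1 members. There *dlc* was at −0.33, *jag2a* at −0.13 and *notchl* at −0.13. No other member's sign turned.

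With quality weights the sign turned for *jag1b* (0.0227), *jag1a* (−0.34), *her12* (0.16), *her4.1* (0.24) and *her4.4* (0.25). With a library left out (control replicate 1 for all but *dlc* and *jag2a*, which turned without *cora* replicate 2; *jag2a* also without *cora* replicate 1, *jag1a* without 4, *her4.4* without 2 or 3), it turned for *dlc* (−0.072 to 0.38), *jag1b* (−0.33 to 0.11), *jag2a* (−0.16 to 0.28), *jag1a* (−0.27 to 0.67), *notch3* (−0.60 to 0.0445), *her12* (−1.05 to 0.38), *her4.1* (−0.64 to 0.35), *her4.2* (−0.75 to 0.0347), *her4.5* (−0.68 to 0.15), *her4.3* (−0.56 to 0.00393) and *her4.4* (−0.40 to 0.39). The cause was not tested. Depth limits *heyl*, under 3 counts in 3 *cora* libraries, and *her7*, at 5 to 15 counts in control libraries.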

Other observations

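Within 100 kb of *her7*, *heyl*, *dla*, *her8a*, *hey2*, *dlb* and *jagn1a*, 48 neighbouring genes were tested, and 1 (2.08%) had an adjusted p under 0.05 by edgeR's quasi-likelihood test, about the 1.97% of all genes called. It was *eif4a1a*, an RNA helicase gene of the translation initiation family near *her8a*, which was higher in *cora* libraries with a log2 fold change of 1.15 (adjusted p = 0.0487). These genes were chosen after the values of their neighbours were seen.

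Summed over the 34 genes, control replicate 1 had the highest level of the 7 libraries, 624 normalized CPM, against 461 and 439 in the other controls and 325 to 448 in *cora* libraries. It was the highest library for 17 of the 31 tested genes.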
